A study of Mus musculus with 65 samples.

Results

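Gene expression was compared at day 6 of differentiation between 2 edited mouse embryonic stem cell lines, one labelled H3.3K27A and the other labelled H3.3A knockout. The comparison rests on 4 RNA-seq libraries, 2 of each line, taken by their labels from the 65 samples of the series, of which 17 are RNA-seq libraries. Both lines were made with CRISPR/Cas9 and were grown as rotating embryoid bodies without leukaemia inhibitory factor and with 10 µM all-trans retinoic acid. Further libraries from the same year served as context: both lines at day 0, still held as stem cells with leukaemia inhibitory factor (2 libraries each), and unedited wild-type cells at day 6 (2 libraries) and day 0 (1 library). The labels do not state which H3.3 gene carries the K27A change, how many clones stand behind each line, or whether duplicate RNA libraries came from separate cultures, so p-values measure the spread between these libraries only.

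H3.3 is the histone H3 variant that is placed into chromatin outside replication by the HIRA and ATRX-DAXX chaperones, and it is encoded by H3f3a (also called H3.3A) and H3f3b (H3.3B). Lysine 27 of H3 is methylated by Polycomb repressive complex 2 at silent developmental genes and acetylated at active enhancers and promoters. An alanine in its place can carry neither mark. Retinoic acid drives stem cells towards neural and other embryonic fates, and embryoid bodies also form an outer layer of extraembryonic endoderm that lays down a basement membrane.

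The reference sequences around lysine 27 are shown because they are what the K27A label changes. They cover residues 22 to 33, counted without the initiating methionine, and capitals mark the codon of lysine 27. Both come from RefSeq on GRCm38.p6 and are written 5′ to 3′ on the coding strand, which is the minus strand for both genes.
H3f3a: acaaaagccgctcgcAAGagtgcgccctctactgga
H3f3b: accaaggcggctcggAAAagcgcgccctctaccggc
The H3f3a window lies at chr1:180811825-180811860 and the H3f3b window at chr11:116023908-116023943, each within an exon. The windows differ at 8 of 36 bases and the whole coding sequences at 95 of 411 bases, with 0 differences in the encoded residues. Counts per gene do not show the edited base.

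H3f3a was low in both lines, and H3f3b was lower in H3.3K27A than in the knockout. H3f3a had 20.4 and 20.4 CPM (read counts scaled to a common library size with TMM factors) in H3.3K27A, 20.9 and 23.1 CPM in the knockout, and 119 and 114 CPM in wild type. The 2 edited lines did not differ by the test (log2 fold change −0.11 ± 0.09, approximate SE, edgeR adjusted p = 0.446), and every library of theirs lay below both wild-type libraries. H3f3b had 599 and 599 CPM in H3.3K27A, 1134 and 1051 CPM in the knockout, and 885 and 894 CPM in wild type. It fell by 0.87 ± 0.07 on the log2 scale (edgeR adjusted p = 0.000112), with wild type between the lines. The same difference was present at day 0 (−0.84 ± 0.07, edgeR adjusted p = 0.000484), when H3f3b had 499 and 501 CPM in H3.3K27A and 872 and 914 CPM in the knockout. Both genes have near-identical copies elsewhere in the genome, so part of their reads may not be placed with certainty. Of the other 13 tested genes for H3.3 chaperones and related proteins 0 were called.

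The 2 knockout libraries of day 6 stood apart from each other more than any other pair. The 4 day 6 libraries held 17.8 to 22.03 M gene counts. The SD of the log2 difference between duplicates was 0.562 in the knockout at day 6, against 0.299 in H3.3K27A and 0.317 in wild type at day 6, and 0.404 and 0.355 in H3.3K27A and the knockout at day 0. Reads outside annotated genes made up 11.3% and 16.8% of the 2 knockout libraries and 12.8% to 14.2% of the other 9. On the first principal component of the 6 day 6 libraries (46.4% of the variance) the H3.3K27A libraries lay at −28.7 and −22.6, the knockout libraries at 53.4 and 22.3, and the wild-type libraries at −14.9 and −9.46. Counts or medians of the main gene lists are therefore also given with each of the 4 libraries left out.

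At day 6, 2756 of 14760 tested genes (18.7%) were called at a Benjamini-Hochberg adjusted p below 0.05 in edgeR's quasi-likelihood test, of which 1333 (9.03%) were higher in H3.3K27A and 1423 (9.64%) lower. With an added log2 fold change of at least 1 either way, 866 genes (5.87%) were called, 320 of them higher (2.17%) and 546 lower (3.7%). The number of calls depended on the libraries in the fit. It was 719 without H3.3K27A replicate 1 (4.88%, with 2.72% higher and 2.16% lower) and 1086 without H3.3K27A replicate 2 (7.37%, with 3.79% higher and 3.58% lower). It was 3901 without knockout replicate 1 (26.4%, with 12.9% higher and 13.5% lower) and 5794 without knockout replicate 2 (39.5%, with 19% higher and 20.5% lower). A fit on the 4 libraries alone called 208 genes (1.54%), 134 higher (0.989%) and 74 lower (0.546%). The spread used for the 2756 calls came from all 11 libraries of that year, and every other pair of duplicates was closer than the knockout pair. A pair with 1 library left out gives nothing to the spread. Counts from such fits are therefore no like-for-like check on the 2756 calls.

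**Figure D1:**
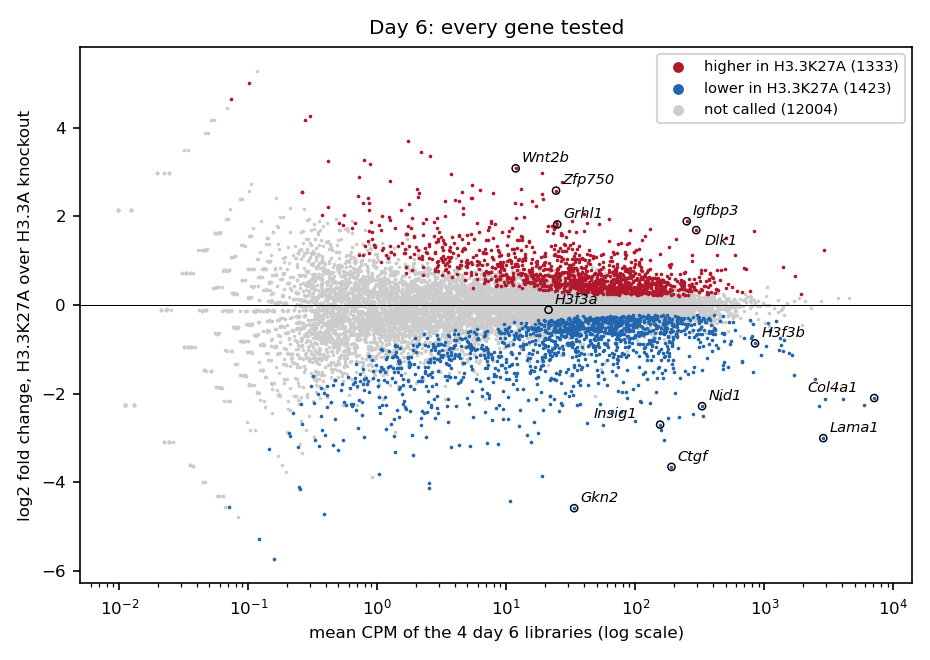
Log2 fold change of H3.3K27A over the H3.3A knockout at day 6 (y axis) against the mean CPM of the 4 libraries (x axis, log scale) for each tested gene, with 1333 genes higher in H3.3K27A in red, 1423 lower in blue and the rest grey. Col4a1 at −2.10 and Lama1 at −3.00 are among the abundant genes below 0.

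Most basement membrane genes were lower in H3.3K27A, some of them among the abundant transcripts. Of the 16 tested genes for laminins, collagen IV, nidogens and related proteins, 10 were lower and 3 higher, with a median log2 fold change of −0.83 against −0.03 over all genes tested. The summed CPM of the list was 10179.0 and 11963.8 in H3.3K27A, 44174.8 and 30935.1 in the knockout, and 12349.2 and 14488.4 in wild type, so the knockout libraries stood above both other groups. Between 9 and 10 members were lower when any 1 of the 4 libraries was left out, and 5 were lower in the fit on those 4 alone.

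Lama1, the laminin α1 chain of early embryonic basement membranes, had 518 and 750 CPM in H3.3K27A, against 6031 and 4134 CPM in the knockout and 826 and 1134 CPM in wild type. It fell by 3.00 ± 0.23 on the log2 scale (edgeR adjusted p = 0.000109), an 8.02-fold difference. Lamc1, the laminin γ1 chain, had 985 and 1213 CPM in H3.3K27A and 5510 and 4018 CPM in the knockout (−2.12 ± 0.17, edgeR adjusted p = 0.000122). Nid1, a nidogen that links laminin to collagen IV, had 97.0 and 127 CPM in H3.3K27A and 640 and 450 CPM in the knockout (−2.28 ± 0.18, edgeR adjusted p = 0.000112). For each of these 3 genes both wild-type libraries lay below both knockout libraries. Col4a1, a chain of collagen IV named after its values were seen, had 2372 and 2997 CPM in H3.3K27A and 13872 and 9124 CPM in the knockout (−2.10 ± 0.21, edgeR adjusted p = 0.000279). Col4a2, its partner chain, was at −2.12 and Lamb1, the laminin β1 chain, at −2.28. Among the 3 members that rose instead were Lama5, a laminin chain of epithelial basement membranes (0.81, edgeR adjusted p = 0.00246), and Col18a1, the endostatin precursor (1.14, edgeR adjusted p = 0.000204).

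Markers of primitive and visceral endoderm, the extraembryonic lineage that makes much of the early basement membrane, were lower too. Of 28 tested members 16 were lower and 1 higher (median −0.94). The summed CPM of the list was 3655.9 and 4372.4 in H3.3K27A, 16804.7 and 9886.5 in the knockout, and 4144.6 and 5068.1 in wild type. The lower count was 8 without H3.3K27A replicate 1, 11 without H3.3K27A replicate 2, 16 without knockout replicate 1, 21 without knockout replicate 2 and 4 in the fit on the 4 libraries alone. In such bulk samples fewer cells of a type and less RNA per cell cannot be told apart.

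Cubn, the cubilin receptor with which visceral endoderm takes up nutrients, had 249 and 320 CPM in H3.3K27A, against 842 and 670 CPM in the knockout and 304 and 358 CPM in wild type (−1.41 ± 0.14, edgeR adjusted p = 0.000316). Its partner Lrp2, megalin, had 79.5 and 89.5 CPM in H3.3K27A and 248 and 195 CPM in the knockout (−1.39 ± 0.13, edgeR adjusted p = 0.000204). Both uptake receptors separated the lines without overlap, as did 4288 of all 14760 tested genes in the same direction. Pdgfra, a growth factor receptor of primitive endoderm and mesoderm, had 104 and 111 CPM in H3.3K27A and 273 and 234 CPM in the knockout (−1.24 ± 0.10, edgeR adjusted p = 0.000122). Gata4, a transcription factor of endoderm and heart, had 143 and 169 CPM in H3.3K27A and 557 and 267 CPM in the knockout (−1.40 ± 0.27, edgeR adjusted p = 0.00734) with its 2 knockout libraries far apart. Sparc, a matrix protein of parietal endoderm named after its values were seen, had 1788 and 2306 CPM in H3.3K27A and 12552 and 6966 CPM in the knockout (−2.25 ± 0.26, edgeR adjusted p = 0.000557). The 1 member that was higher was Foxa1, a pioneer factor that gut and other epithelia also express (1.19 ± 0.16, edgeR adjusted p = 0.00125).

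**Figure D2:**
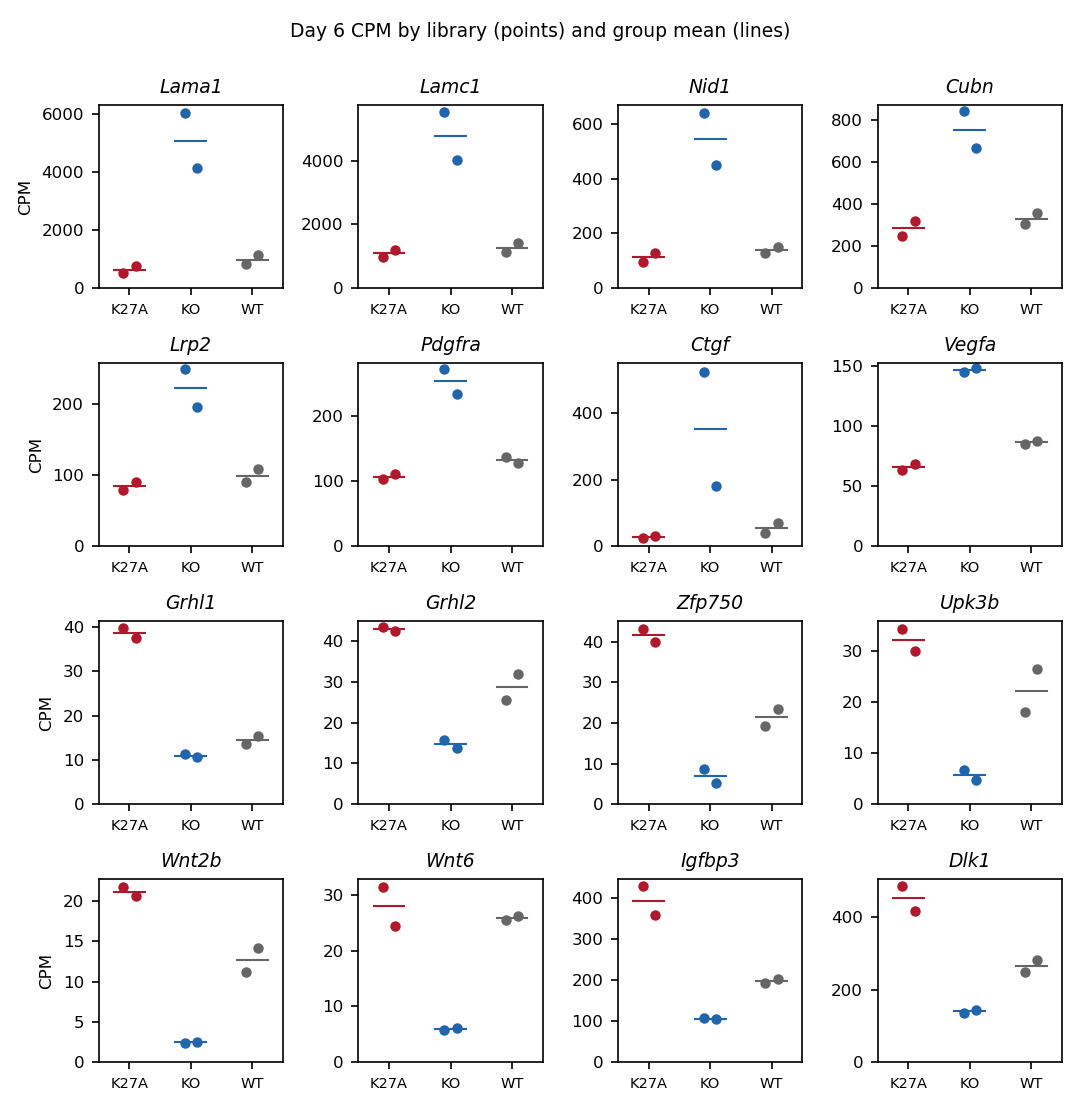
CPM at day 6 (y axes, from 0) of 16 named genes in each library (points) with the group mean (lines), for H3.3K27A (K27A, red), the H3.3A knockout (KO, blue) and wild type (WT, grey). The first 8 genes are lower in H3.3K27A than in the knockout and the last 8 are higher, as for Lama1 with 518 and 750 CPM against 6031 and 4134 CPM.

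The largest falls among genes of at least 5 CPM on average included secreted and signalling genes of several tissues. Gkn2 and Gkn1, gastrokines of the stomach lining, fell by 4.58 ± 0.34 and 4.41 ± 0.31 on the log2 scale (edgeR adjusted p = 0.00014 and 0.000107). Gkn2 had 1.65 and 3.82 CPM in H3.3K27A, against 73.7 and 55.0 CPM in the knockout and 5.28 and 6.36 CPM in wild type. Ctgf, a matricellular protein and a classical target of the Hippo pathway effector YAP, had 26.0 and 30.2 CPM in H3.3K27A and 524 and 181 CPM in the knockout (−3.65 ± 0.45, edgeR adjusted p = 0.000876). Fst, the activin antagonist follistatin, had 31.9 and 40.3 CPM in H3.3K27A and 416 and 176 CPM in the knockout (−3.04 ± 0.35, edgeR adjusted p = 0.000591). Wild type had 38.6 and 69.0 CPM for Ctgf and 37.9 and 50.4 CPM for Fst. Against wild type, H3.3K27A was not called for Ctgf or Fst (edgeR adjusted p = 0.335 and 0.763). The knockout was higher than wild type for both (2.72 and 2.75, edgeR adjusted p = 0.00583 and 0.00235). In Gkn2, Ctgf and Fst both H3.3K27A libraries lay below both knockout libraries, which the choice of genes of this rank required. Of all 14760 genes tested, 4288 lay below in this way and 4014 above. The remaining genes of this rank were Prss35, a serine protease-like protein, at −3.86, Trpc5os at −3.17, the prostaglandin E receptor Ptger3 at −3.14, the LIF receptor Lifr at −3.12, the GTPase-activating protein Arhgap6 at −3.09, Ankrd1 at −2.94 and Drp2, a dystrophin relative, at −2.89. Trpc5os is named as an opposite-strand gene, and whether reads were counted by strand is not given in the sources used here, so its reads cannot be told from those of an overlapping gene.

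Because Ctgf and Ankrd1 were in this group, a list of 20 YAP and TEAD targets was added after the values were seen. Of 19 tested members 7 were lower and 5 higher (median −0.61), and no member of it was called in the fit on the 4 libraries alone. The median rested on knockout replicate 1: it was −0.05 without that library and −0.97 without knockout replicate 2. The promoter of Ankrd1 (RefSeq, GRCm38.p6, chr19:36119795-36120094, minus strand, from 250 bases before to 50 after the start) is shown with matches to the TEAD core CATTCC, or GGAATG on the other strand, in capitals.
Ankrd1: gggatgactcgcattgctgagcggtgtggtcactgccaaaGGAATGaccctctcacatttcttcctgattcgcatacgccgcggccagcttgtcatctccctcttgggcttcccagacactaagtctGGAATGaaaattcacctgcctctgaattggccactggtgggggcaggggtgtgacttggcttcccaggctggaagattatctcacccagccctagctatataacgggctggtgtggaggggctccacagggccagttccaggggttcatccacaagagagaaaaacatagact
It holds 2 matches. Of the 13 list members whose promoter RefSeq gave, 7 (53.8%) held a match, against 16.6% of all 27025 genes in that table. A match is a description of letters, and the list holds members that moved either way.

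Targets of the hypoxia factor HIF1 and glycolytic enzymes were lower in H3.3K27A than in the knockout. Against wild type, 0 list members were higher and 1 lower in H3.3K27A (median −0.07). In the knockout 10 were higher and 0 lower than in wild type (median 0.56). The summed CPM of the list was 2727.6 and 2852 in H3.3K27A, 5297 and 3609.3 in the knockout, and 2689.5 and 2947.2 in wild type. Of 25 tested members 13 were lower and 0 higher (median −0.67), and the lower count was 4 without H3.3K27A replicate 1, 10 without H3.3K27A replicate 2, 14 without knockout replicate 1, 17 without knockout replicate 2 and 2 in the fit on the 4 libraries alone. Vegfa, the main vascular growth factor, had 63.2 and 68.6 CPM in H3.3K27A, against 145 and 148 CPM in the knockout and 84.9 and 87.9 CPM in wild type (−1.16 ± 0.07, edgeR adjusted p = 9.67e-05). P4ha2 and P4ha1 encode the prolyl hydroxylase subunits that modify collagen chains. P4ha2 had 88.7 and 110 CPM in H3.3K27A and 716 and 419 CPM in the knockout (−2.51 ± 0.24, edgeR adjusted p = 0.000256), and P4ha1 had 80.2 and 90.6 CPM in H3.3K27A and 617 and 322 CPM in the knockout (−2.46 ± 0.25, edgeR adjusted p = 0.000321). The glycolytic enzyme Ldha, named after its values were seen, was at −1.33 (edgeR adjusted p = 0.00556). The P4ha2 promoter (RefSeq, GRCm38.p6) is shown with matches to the hypoxia response core ACGTG, or CACGT on the other strand, in capitals.
P4ha2: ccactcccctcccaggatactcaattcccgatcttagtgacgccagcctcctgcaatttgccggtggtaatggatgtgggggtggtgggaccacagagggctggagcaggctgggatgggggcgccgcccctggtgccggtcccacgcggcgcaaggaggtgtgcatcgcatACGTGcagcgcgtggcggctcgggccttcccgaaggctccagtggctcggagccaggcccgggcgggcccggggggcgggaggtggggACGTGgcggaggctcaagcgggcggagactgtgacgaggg
It lies at chr11:54100674-54100973 on the plus strand and holds 2 matches. The core was found in 17 of the 22 list members with a promoter in the table (77.3%) and in 21.8% of all genes there, a share that says nothing of whether the factor bound in these cells.

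Sterol genes and pluripotency factors made up smaller groups with lower members. Of 21 tested genes of cholesterol synthesis and its control 6 were lower and 0 higher (median −0.21). That is 28.6% called, against 18.7% of all genes, and 1 was lower in the fit on the 4 libraries alone. The median lay between −0.23 and −0.18 when any 1 of the 4 libraries was left out. Insig1, which holds the sterol sensor in the endoplasmic reticulum, had 37.6 and 45.4 CPM in H3.3K27A and 361 and 178 CPM in the knockout (−2.70 ± 0.27, edgeR adjusted p = 0.000321). Srebf2, the transcription factor of the pathway, was at −0.37 (edgeR adjusted p = 0.0101) and was not called on the 4 libraries alone. Of 25 pluripotency factors 8 were lower and 1 higher (median −0.33), and none was called in the fit on the 4 libraries alone. Fbxo15, an F-box gene of stem cells, had 10.1 and 14.4 CPM in H3.3K27A, against 83.1 and 34.3 CPM in the knockout. Klf4, a naive stem cell factor that epithelia also use, had 75.6 and 88.2 CPM in H3.3K27A and 286 and 152 CPM in the knockout (−1.42 ± 0.24, edgeR adjusted p = 0.0041). Dppa2, a germline and stem cell gene, was at −0.93 (edgeR adjusted p = 0.00862). Without H3.3K27A replicate 1 the lower count of the pluripotency list was 1 and without knockout replicate 2 it was 11.

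Genes of surface ectoderm and epithelium were mostly higher in H3.3K27A. Of 22 tested members 16 were higher and 0 lower (median 0.94). The count was 9 without H3.3K27A replicate 1, 12 without H3.3K27A replicate 2, 20 without knockout replicate 1, 17 without knockout replicate 2 (with 4 lower) and 6 in the fit on the 4 libraries alone. Grhl1 and Grhl2, grainyhead-like factors that switch on epithelial junction genes, were among them. Grhl1 had 39.8 and 37.5 CPM in H3.3K27A, against 11.4 and 10.6 CPM in the knockout and 13.7 and 15.4 CPM in wild type (1.82 ± 0.11, edgeR adjusted p = 0.000107). Grhl2 had 43.3 and 42.3 CPM in H3.3K27A, 15.8 and 13.8 CPM in the knockout, and 25.5 and 31.8 CPM in wild type (1.53 ± 0.12, edgeR adjusted p = 0.000109). Grhl3, the third factor of the family, named after its values were seen, was at 2.34 (edgeR adjusted p = 0.000192). The simple epithelial keratins did not follow: Krt8 had 202 and 199 CPM in H3.3K27A and 383 and 156 CPM in the knockout (edgeR adjusted p = 0.371), and Krt18 and Krt19 had adjusted p-values of 0.891 and 0.835 in the same test. In all 3 keratins the knockout libraries lay on either side of the H3.3K27A libraries.

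Genes of layered and bladder epithelium stood high among the largest rises. Zfp750, a zinc finger factor of epidermal differentiation, had 43.1 and 40 CPM in H3.3K27A, against 8.64 and 5.37 CPM in the knockout and 19.3 and 23.4 CPM in wild type (2.58 ± 0.21, edgeR adjusted p = 0.000122). Upk3b, a uroplakin, had 34.4 and 30.1 CPM in H3.3K27A and 6.65 and 4.79 CPM in the knockout (2.5 ± 0.22, edgeR adjusted p = 0.000157), and Krt4, a keratin of layered epithelium, had 14.1 and 12.6 CPM in H3.3K27A and 2.78 and 1.91 CPM in the knockout (2.51 ± 0.24, edgeR adjusted p = 0.000249). None of the 3 overlapped between the lines, which was a condition for being named among the largest rises. Prom2, a prominin of epithelial surfaces, was at 2.62, Nectin4, a junction protein, at 2.59, Il17re, a receptor of epithelial cells, at 2.41, and Duox2, a hydrogen peroxide-producing oxidase, at 2.97. In a list of layered and bladder epithelium added after these values were seen, 12 of 21 tested members were higher and 0 lower (median 0.92), and 7 were higher in the fit on the 4 libraries alone. Among them were Upk1a (1.94, edgeR adjusted p = 0.000148) and Evpl, the cornified-envelope protein envoplakin (1.87, edgeR adjusted p = 0.000107). The list was drawn up from these samples, so its direction is not independent evidence. The grainyhead-like core AACCGGTT, the same on both strands, was found in 0 of the 13 promoters that RefSeq gave for the surface ectoderm and epithelium list, and in 0.174% of all genes there.

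Other large rises were of single genes with different roles. Agtr2, the type 2 angiotensin receptor, had 55.1 and 38.8 CPM in H3.3K27A and 3.82 and 9.84 CPM in the knockout (2.77 ± 0.38, edgeR adjusted p = 0.00202). Tgm7, a transglutaminase, was at 2.71, and Rab27b, a small GTPase of secretory vesicles, at 2.39.

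**Figure D3:**
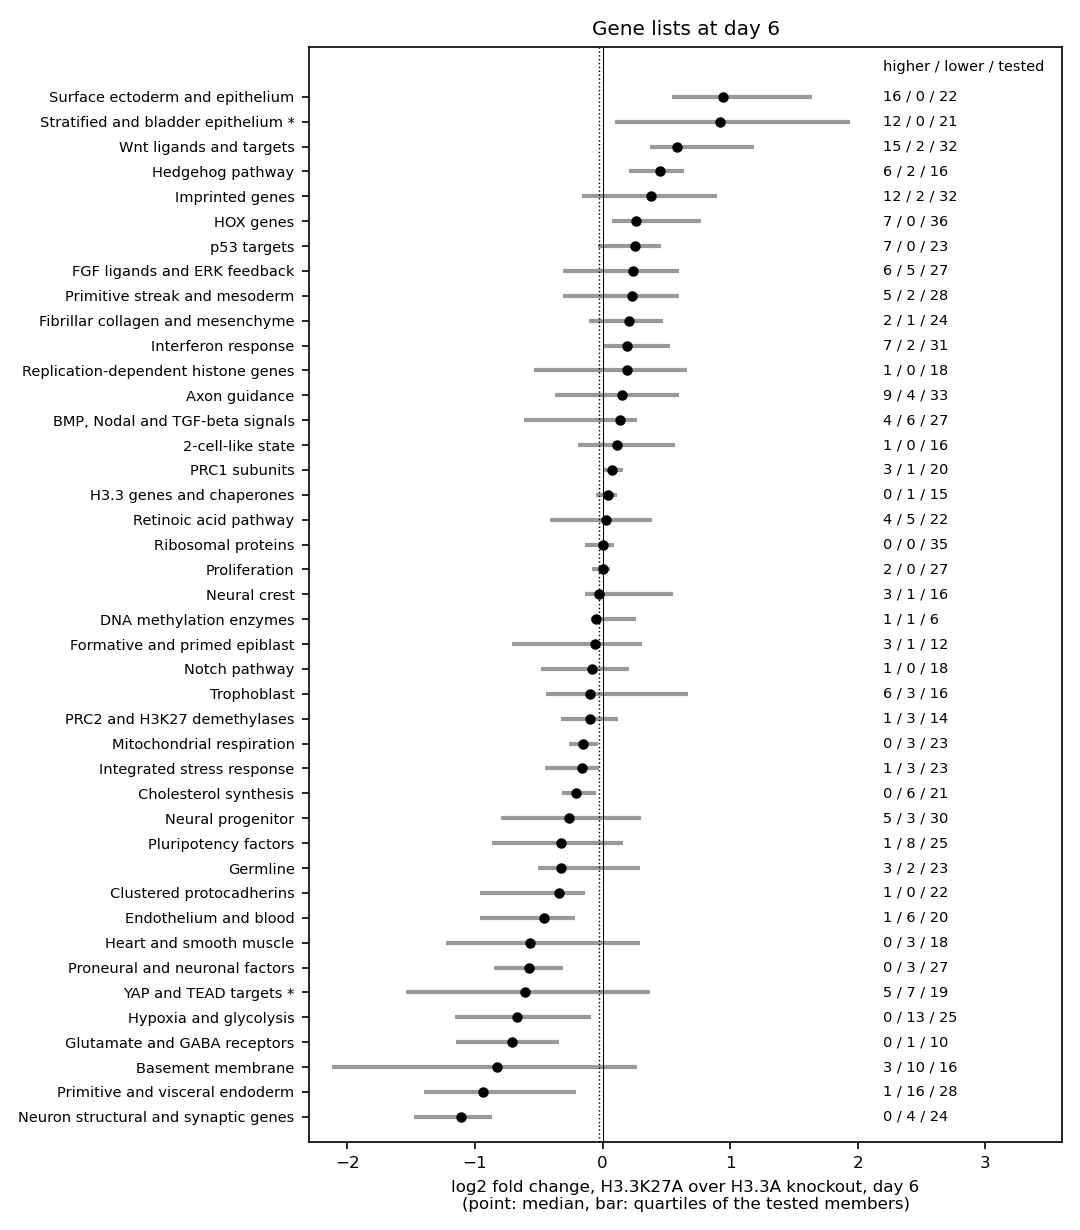
Median (points) and quartiles (bars) of the log2 fold change of H3.3K27A over the H3.3A knockout at day 6 for the tested members of each gene list (x axis), with the number higher, lower and tested at the right; the dotted line marks the median of all genes (−0.03) and asterisks the 2 lists added after the values were seen. Surface ectoderm and epithelium has the highest median (0.94), and neuron structural and synaptic genes the lowest (−1.11) with only 4 of 24 members called.

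Wnt ligands and feedback genes were higher in H3.3K27A. Of 32 tested members 15 were higher and 2 lower (median 0.58), and between 7 and 20 were higher when any 1 of the 4 libraries was left out, with 7 without H3.3K27A replicate 1, 9 without H3.3K27A replicate 2 and 6 in the fit on the 4 libraries alone. Wnt2b, a ligand of retina, limb and gut, had 21.7 and 20.6 CPM in H3.3K27A, against 2.46 and 2.53 CPM in the knockout and 11.1 and 14.1 CPM in wild type (3.08 ± 0.20, edgeR adjusted p = 0.000107). The difference was 8.45-fold. Wnt6, a ligand of surface ectoderm that both lists hold, had 31.4 and 24.4 CPM in H3.3K27A, 5.87 and 6.12 CPM in the knockout, and 25.5 and 26.2 CPM in wild type (2.22 ± 0.16, edgeR adjusted p = 0.000107). Notum, the secreted enzyme that inactivates Wnt proteins, had 11 and 7.31 CPM in H3.3K27A and 1.57 and 1.86 CPM in the knockout (2.41 ± 0.22, edgeR adjusted p = 0.000207).

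The promoter of Wnt2b is printed because it carried the Polycomb mark in wild-type chromatin. Within 1 kb of its start lay peaks of both H3.3K27me3 and H3K27me3 at day 0 and of H3K27me3 alone at day 6, each found in both ChIP duplicates. The sequence (RefSeq, GRCm38.p6, chr3:104961660-104961959, minus strand) has CG dinucleotides in capitals.
Wnt2b: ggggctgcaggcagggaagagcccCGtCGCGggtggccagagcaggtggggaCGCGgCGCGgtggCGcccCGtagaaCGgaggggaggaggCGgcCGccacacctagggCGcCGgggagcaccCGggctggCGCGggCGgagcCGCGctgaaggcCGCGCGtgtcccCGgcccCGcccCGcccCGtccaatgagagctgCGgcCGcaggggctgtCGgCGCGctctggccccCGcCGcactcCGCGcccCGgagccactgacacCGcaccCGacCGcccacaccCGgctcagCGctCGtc
It holds 43 CG dinucleotides in 300 bases, more than 97.4% of the 32851 promoters in the table, whose median is 7. Such CpG-rich promoters are the usual site of Polycomb binding.

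Several signalling lists had members on both sides. Of 16 hedgehog pathway genes 6 were higher and 2 lower (median 0.45), among them the co-receptor Cdon (0.64 ± 0.09, edgeR adjusted p = 0.00139), the transducer Smo (0.64 ± 0.13, edgeR adjusted p = 0.00882) and the co-receptor Gas1 (0.56 ± 0.12, edgeR adjusted p = 0.0137). Its higher count was 1 without H3.3K27A replicate 1, 2 without H3.3K27A replicate 2 and 11 without knockout replicate 2, and no member was called on the 4 libraries alone. Of 27 genes of BMP, Nodal and TGF-β signals 4 were higher and 6 lower (median 0.14), and the median turned to −0.08 without H3.3K27A replicate 2 and to −0.04 without knockout replicate 1. Without knockout replicate 2, 10 were higher and 8 lower. Among the lower ones was the BMP target Id4, with 4.41 and 3.82 CPM in H3.3K27A and 24.0 and 18.4 CPM in the knockout (−2.36 ± 0.20, edgeR adjusted p = 0.000151). Of 27 FGF ligands and ERK feedback genes 6 were higher and 5 lower (median 0.24), with 1 and 2 higher without H3.3K27A replicate 1 and 2, and 11 without knockout replicate 2. The feedback inhibitor Spry1 was higher (0.67 ± 0.08, edgeR adjusted p = 0.000498), while the receptor Fgfr4 (−1.09 ± 0.13, edgeR adjusted p = 0.000822) and the ERK-induced factor Etv4 (−2.06 ± 0.19, edgeR adjusted p = 0.000198) were lower.

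Imprinted genes, which are expressed from 1 parental allele, were more often higher than lower. Of 32 tested members 12 were higher and 2 lower (median 0.38), with 2 higher and 0 lower in the fit on the 4 libraries alone. The median was 0.44 and 0.40 without H3.3K27A replicate 1 and 2. It was 0.29 and 0.69 without knockout replicate 1 and 2. Dlk1, a Notch-related ligand of progenitors, had 487 and 417 CPM in H3.3K27A, against 137 and 144 CPM in the knockout and 249 and 283 CPM in wild type (1.69 ± 0.12, edgeR adjusted p = 0.000107). Mest, a mesoderm gene, had 808 and 694 CPM in H3.3K27A, 234 and 291 CPM in the knockout, and 552 and 509 CPM in wild type (1.52 ± 0.11, edgeR adjusted p = 0.000107). Wild type lay between the lines in both. Peg3, a zinc finger gene, was at 0.85 ± 0.09 (edgeR adjusted p = 0.000369) and Peg10, a placental gene of retrotransposon origin, at 0.66 ± 0.08 (edgeR adjusted p = 0.000573).

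HOX genes, which give cells their place along the body axis, differed in 7 of 36 tested members, all higher in H3.3K27A (median 0.26). The share called was 19.4%, against 18.7% of all genes. At day 0 the list had 2 higher members and a median of 0.59. Its summed CPM was then 51.7 and 60.1 in H3.3K27A and 34.4 and 32.7 in the knockout. Hoxa10 was 1 of these 2 (1.19, edgeR adjusted p = 0.0234), and its interaction was not called. The day 6 median was 0.21 and 0.30 without H3.3K27A replicate 1 and 2, and 0.11 and 0.52 without knockout replicate 1 and 2. On the 4 libraries alone 2 members were higher. Hoxa10 had 35.6 and 36.5 CPM in H3.3K27A, against 11.8 and 10.2 CPM in the knockout and 7.32 and 7.41 CPM in wild type (1.71 ± 0.14, edgeR adjusted p = 0.000132). Hoxc8 had 130 and 119 CPM in H3.3K27A, 42.6 and 53.7 CPM in the knockout, and 76.1 and 84.7 CPM in wild type (1.37 ± 0.13, edgeR adjusted p = 0.000259). Hoxc9 was at 0.92 ± 0.12 (edgeR adjusted p = 0.000992). For Hoxa10 both edited lines lay above wild type, and for Hoxc8 wild type lay between them.

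Some subunits of Polycomb complexes were called, in both directions. Of 14 tested genes for PRC2 and the H3K27 demethylases 1 was higher and 3 lower (28.6% called, median −0.10), and of 20 PRC1 genes 3 were higher and 1 lower (20% called, median 0.07), against 18.7% of all genes. Without knockout replicate 2 the PRC2 list had 3 higher and 5 lower members and a median of 0.07, without knockout replicate 1 the PRC1 list had 6 higher and 2 lower, and 0 were called in either list on the 4 libraries alone. Jarid2, which helps to bring PRC2 to chromatin, had 255 and 262 CPM in H3.3K27A and 183 and 196 CPM in the knockout (0.45 ± 0.07, edgeR adjusted p = 0.00203), and Phf1, a PRC2 accessory protein, was at −0.61 ± 0.10 (edgeR adjusted p = 0.00313). Cbx6 (0.46 ± 0.07, edgeR adjusted p = 0.00203) and Cbx2 (0.58 ± 0.10, edgeR adjusted p = 0.00409), chromobox readers of H3K27me3, were higher. Pcgf5, a subunit of variant PRC1, was lower (−1.40 ± 0.25, edgeR adjusted p = 0.00531). It had 17.2 and 19.7 CPM in H3.3K27A, 64.6 and 32.9 CPM in the knockout, and 29.1 and 31.3 CPM in wild type. Its log2 fold change ran from −1.81 to −0.82 over the alternative settings. Among ribosomal proteins 0 of 35 were called (6 when knockout replicate 1 was left out), and among proliferation genes 2 of 27 were called, both higher.

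The neuronal lists turned on the 2 knockout libraries. The structural and synaptic genes of neurons had the lowest median of all lists (−1.11), yet only 4 of 24 were lower and 0 higher (16.7% called). Their summed CPM was 328.5 and 250.5 in H3.3K27A, 315.6 and 853.1 in the knockout, and 577.8 and 340.3 in wild type. Without knockout replicate 1 the count of lower genes was 21 of 24, without knockout replicate 2 it was 2, and on the 4 libraries alone it was 0. Nefl, a neurofilament, had 31.7 and 21.6 CPM in H3.3K27A and 60.3 and 126 CPM in the knockout (−1.80 ± 0.33, edgeR adjusted p = 0.00563). Gap43, a growth cone protein, had 9.95 and 8.19 CPM in H3.3K27A and 14.6 and 33.6 CPM in the knockout (−1.41 ± 0.38, edgeR adjusted p = 0.0297). Syn1, a synaptic vesicle protein, was at −1.07 (edgeR adjusted p = 0.0211). Of 27 proneural and neuronal transcription factors 3 were lower and 0 higher (median −0.58), namely Onecut2, Myt1l and Myt1, a share of 11.1% against 18.7% of all genes. Its direction turned with the library left out, with 0 higher and 17 lower (median −1.11) without knockout replicate 1, and 3 higher and 2 lower (median 0.26) without knockout replicate 2. Knockout replicate 2, which was high for neuronal genes, was also the lower of its pair for the endoderm and basement membrane lists. The same inverse order held within the H3.3K27A pair and the wild-type pair, where replicate 1 was the higher for neuronal genes. The endoderm sums of replicates 1 and 2 were 3655.9 and 4372.4 CPM in H3.3K27A, and 4144.6 and 5068.1 CPM in wild type. The part of this split in the endoderm and basement membrane results was not tested.

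Markers of other cell types that embryoid bodies can hold also differed in part. Of 20 genes of endothelium and blood 6 were lower and 1 higher (median −0.46), with 2 and 3 lower without H3.3K27A replicate 1 and 2. The lower ones included the VEGF receptor Flt1 (−0.91 ± 0.10, edgeR adjusted p = 0.000558) and the junction protein Esam (−2.73 ± 0.39, edgeR adjusted p = 0.00166), and the higher one was Gata2 (1.53 ± 0.24, edgeR adjusted p = 0.00282). Of 18 genes of heart and smooth muscle 3 were lower and 0 higher, a share of 16.7% that is below the 18.7% of all genes. The median of that list was −0.57, but −0.18 without knockout replicate 1 and −0.90 without knockout replicate 2. The 3 were Nppb, a natriuretic peptide at 0.118 and 0.147 CPM in H3.3K27A and 2.67 and 1.20 CPM in the knockout, and the contractile genes Acta2 (−1.48) and Tagln (−1.03). Acta2 had 54.5 and 22.7 CPM in the knockout and 28.5 and 26.5 CPM in wild type. Tagln had 62.5 and 28.6 CPM in the knockout and 43.1 and 51.0 CPM in wild type. In the fit on the 4 libraries alone 0 members of this list were called, and Tagln was not called with the replicate block either. Of 16 trophoblast genes 6 were higher, with the factor Elf5 at 2.95 and Peg10 among them, and 3 were lower, with Rhox5, a homeobox gene, at −2.22. The trophoblast median (−0.10) turned to 0.34 without H3.3K27A replicate 2 and to 0.32 without knockout replicate 1. Of 28 genes of primitive streak and mesoderm 5 were higher and 2 lower, with 1 higher when either H3.3K27A library was left out. Osr1, a factor of kidney and heart progenitors, had 69.8 and 62.5 CPM in H3.3K27A, 18.0 and 18.5 CPM in the knockout, and 45.7 and 52.3 CPM in wild type (1.86 ± 0.11, edgeR adjusted p = 9.24e-05).

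Guidance cues, interferon-response genes and p53 targets had called members as well, at 39.4%, 29% and 30.4% against 18.7% of all genes. On the 4 libraries alone 1 guidance gene was lower, 0 interferon-response genes were called and 1 p53 target was higher. Of 33 axon guidance genes 9 were higher and 4 lower (median 0.15), with the semaphorin Sema3c at 189 and 166 CPM in H3.3K27A and 49.5 and 71.8 CPM in the knockout (1.55 ± 0.16, edgeR adjusted p = 0.000354) and Sema6d at −1.94 ± 0.21 (edgeR adjusted p = 0.000445). The direction of the guidance list turned with the library left out, with 9 higher and 12 lower (median −0.19) without knockout replicate 1, and 19 higher and 4 lower (median 0.69) without knockout replicate 2. Of 31 interferon-response genes 7 were higher and 2 lower (median 0.19), with 2 and 3 higher without H3.3K27A replicate 1 and 2. Ddx58, the RNA sensor RIG-I, was at 0.72 ± 0.09 (edgeR adjusted p = 0.000868), Ifit1 at 1.31 ± 0.18 (edgeR adjusted p = 0.00136) and Isg15 at 1.08 ± 0.22 (edgeR adjusted p = 0.00999). Of 23 p53 targets 7 were higher and 0 lower, led by Perp, which is also a desmosome protein (1.37 ± 0.13, edgeR adjusted p = 0.000204). That count was 16 higher and 0 lower without knockout replicate 1, and 7 higher and 10 lower without knockout replicate 2.

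**Figure D4:**
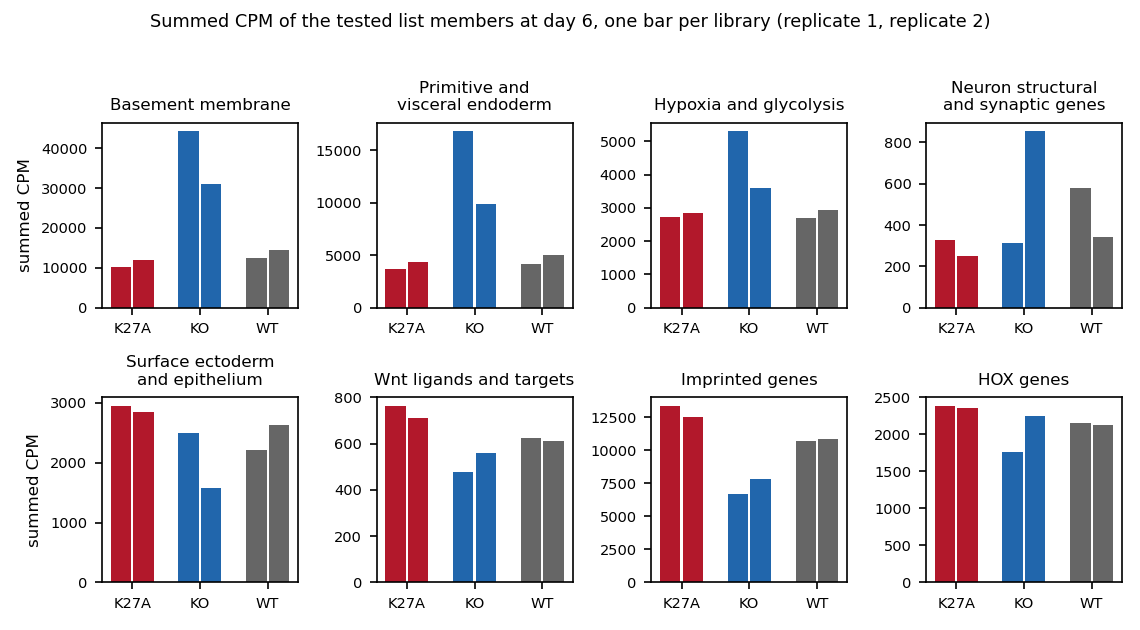
Summed CPM at day 6 (y axes, from 0) of the tested members of 8 gene lists, with 1 bar per library (replicate 1, then 2) for H3.3K27A (K27A, red), the H3.3A knockout (KO, blue) and wild type (WT, grey). Both knockout bars stand above all others for basement membrane (44174.8 and 30935.1), whereas 1 knockout bar does for neuron genes (853.1).

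Each line was also set against wild type at day 6. These 2 comparisons share the wild-type libraries with each other and their edited libraries with the comparison above, so their values are only placed side by side. H3.3K27A differed from wild type in 301 genes (2.04%), 167 higher (1.13%) and 134 lower (0.908%), and the knockout in 1683 genes (11.4%), 1030 higher (6.98%) and 653 lower (4.42%). In the primitive and visceral endoderm list 0 members were called in H3.3K27A and 15 were higher in the knockout. In the basement membrane list 1 was higher in H3.3K27A, and 9 were higher and 4 lower in the knockout. In surface ectoderm and epithelium 3 were higher in H3.3K27A and 9 were lower in the knockout. Lama1 was at −0.63 in H3.3K27A (edgeR adjusted p = 0.184) and 2.38 in the knockout (edgeR adjusted p = 0.00091), both against wild type. Grhl1 was at 1.41 in H3.3K27A (edgeR adjusted p = 0.000746) and −0.41 in the knockout (edgeR adjusted p = 0.0528). Igfbp3, an IGF-binding protein, was at 0.99 in H3.3K27A (edgeR adjusted p = 0.00257) and −0.90 in the knockout (edgeR adjusted p = 0.00144).

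At day 0 fewer genes differed, among them genes of early endoderm. In all, 187 of 14760 genes (1.27%) were called, 68 higher in H3.3K27A (0.461%) and 119 lower (0.806%), and the count was 19 to 25 when any 1 of the 4 day 0 libraries was left out and 1019 in a fit on those 4 alone. In the primitive and visceral endoderm list 8 of 28 members were lower and 0 higher. Cubn had 14.6 and 15.5 CPM in H3.3K27A and 116 and 120 CPM in the knockout (−2.97 ± 0.17, edgeR adjusted p = 4.58e-05), and Pdgfra had 2.55 and 3.01 CPM in H3.3K27A and 17.5 and 15.0 CPM in the knockout (−2.55 ± 0.16, edgeR adjusted p = 8.24e-05). Both genes thus separated the lines before differentiation. Sox17, an endoderm factor, and Dab2, an endocytic adaptor, both named after their values were seen, were at −2.65 (edgeR adjusted p = 0.0081) and −2.47 (edgeR adjusted p = 0.000523). The day 0 and day 6 comparisons share no library. Of the 187 genes called at day 0, 94 were also called at day 6, 65 in the same direction (25 higher and 40 lower) and 29 in the opposite one. The 65 were 34.8% of the day 0 calls and 2.36% of the day 6 calls.

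The difference between the lines changed between the days in 796 genes (5.39%, interaction term), with the difference more positive at day 6 in 477 (3.23%) and more negative in 319 (2.16%). That count was 170 to 3897 when any 1 of the 8 libraries was left out. Klhl13, an adaptor of a ubiquitin ligase, had 41.9 and 39.8 CPM in H3.3K27A and 364 and 360 CPM in the knockout at day 0, and 80.4 and 74.8 CPM in H3.3K27A and 71.8 and 93.0 CPM in the knockout at day 6 (interaction 3.06 ± 0.16, edgeR adjusted p = 5.22e-05). At day 6 its groups overlapped. Amot, an angiomotin that binds YAP, had 8.86 and 10.1 CPM in H3.3K27A and 37.7 and 41.0 CPM in the knockout at day 0, and 101 and 98.2 CPM in H3.3K27A against 81.3 and 86.5 CPM in the knockout at day 6 (interaction 2.31 ± 0.13, edgeR adjusted p = 5.22e-05). Frem2, a matrix protein of epithelial adhesion, changed sides: it had 11.5 and 11.4 CPM in H3.3K27A and 30.2 and 29.5 CPM in the knockout at day 0, and 117 and 113 CPM in H3.3K27A and 47.0 and 53.9 CPM in the knockout at day 6 (interaction 2.57 ± 0.13, edgeR adjusted p = 5.22e-05). Sema3e, a semaphorin, and Rragd, a GTPase of the amino acid sensing pathway, changed sides in the same way (interactions 2.12 and 1.85). Igfbp3 was level at day 0 and had 429 and 358 CPM in H3.3K27A and 107 and 106 CPM in the knockout at day 6.

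In the falling direction, Slc26a2, a sulfate transporter, had 61.8 and 56.6 CPM in H3.3K27A and 34.0 and 34.4 CPM in the knockout at day 0, and 56.0 and 67.3 CPM in H3.3K27A and 121 and 111 CPM in the knockout at day 6 (interaction −1.71 ± 0.14, edgeR adjusted p = 0.000752). Acsf2, an acyl-CoA synthetase, was higher in H3.3K27A at day 0 and not called at day 6, with 54.7 and 51.2 CPM against 14.4 and 18.4 CPM in the knockout at day 0, and 44.0 and 44.9 CPM in H3.3K27A against 43.8 and 42.8 CPM in the knockout at day 6 (interaction −1.65 ± 0.16, edgeR adjusted p = 0.000971). Etv4, Nid1, Vegfa and the threonine dehydrogenase gene Tdh were not called at day 0 and were lower in H3.3K27A at day 6 (interactions −2.34, −2.52, −1.26 and −1.11). The endoderm genes Cubn and Pdgfra had positive interactions (1.56 and 1.31), since their difference was smaller at day 6 than at day 0.

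**Figure D5:**
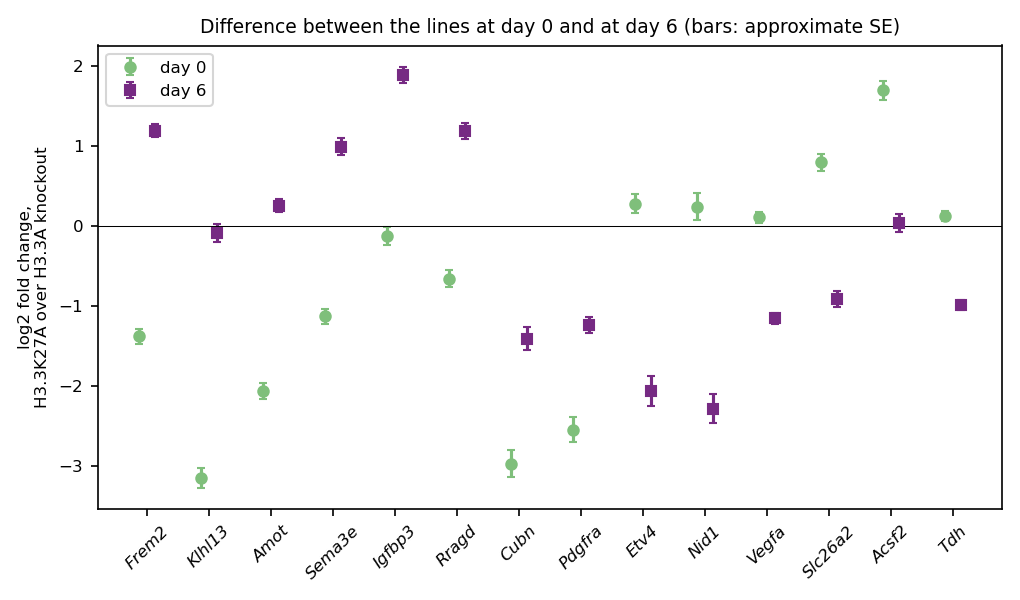
Log2 fold change of H3.3K27A over the H3.3A knockout (y axis) at day 0 (green circles) and day 6 (purple squares) for 14 genes (x axis), with approximate standard errors as bars. Frem2, Sema3e and Rragd lie below 0 at day 0 and above 0 at day 6, Slc26a2 does the reverse, and Klhl13 goes to near 0 (−0.09) at day 6.

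Genes were last grouped by the marks their promoters carried in wild-type chromatin, from peaks within 1 kb of the start that both ChIP duplicates shared. Of 14712 tested genes with a start, 9.05% were higher in H3.3K27A and 9.65% lower. Among the 216 genes with both H3.3K27me3 and H3K27me3 at day 6, 35 (16.2%, Wilson 95% interval 11.9% to 21.7%) were higher and 16 (7.41%, 4.61% to 11.7%) lower. Among the 1732 with H3K27me3 alone, 13.3% were higher (11.8% to 15.0%) and 10.6% lower (9.26% to 12.2%), and among the 12685 with neither mark 8.36% were higher (7.89% to 8.86%) and 9.55% lower (9.06% to 10.1%). The 79 genes with H3.3K27me3 alone gave 7.59% higher, with a wide interval of 3.53% to 15.6%. It holds the shares of H3K27me3 alone and of neither mark, but not the 16.2% of both marks. By the marks of day 0 the shares were 14.1% higher and 9.82% lower among 1710 genes with both marks, 13.8% and 11.9% among 1577 with H3K27me3 alone, 8.79% and 8.06% among 273 with H3.3K27me3 alone, and 7.61% and 9.33% among 11152 with neither. The classes with H3K27me3 thus held a larger share of genes higher in H3.3K27A than those with neither mark, at medians of the log2 fold change between −0.05 and 0.01. With H3K27me3 alone at day 0 the lower share was larger too (10.4% to 13.6%, against 8.81% to 9.89% with neither mark). With both marks the lower share was 7.41% at day 6 and 9.82% at day 0. The classes with H3K27me3 also held less abundant genes. At day 6 their medians were 6.03 CPM for both marks and 4.42 CPM for H3K27me3 alone, against 28.6 CPM for neither mark. The part of abundance in these shares was not tested. Intervals cover counting error only, and genes are not independent replicates. Chromatin of the edited lines was not analysed here.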

How the data were processed

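RNA was poly(A)-selected and made into libraries with a directional kit, per the labels' protocols. The deposited counts are raw counts per gene symbol, and STAR 2.5.2a, HTSeq and mm10 stand in the submitters' processing notes; whether HTSeq used strand is not given in the sources used here. Gene counts summed to between 14.27 and 22.03 M in each of the 11 RNA libraries dated 2020, over 24465 symbols. HTSeq's summary lines were left out of library sizes and tests, and reads without a feature are given as a percent in the results. The promoter classes used the authors' filtered peak lists, whose constant score column carries no measurement. The fold enrichment of each peak is the authors' ratio from MACS 2.2.6, run without a control per the file headers, and was used only for a stricter alternative. The filter behind the lists is not stated.

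Counts were fitted with edgeR 4.0.16 (R 4.3.3) over 11 libraries in 6 groups, with TMM scaling, filterByExpr (14760 genes kept) and the quasi-likelihood F-test on 5 residual degrees of freedom, with Benjamini-Hochberg adjustment over all genes tested and a threshold of 0.05. Standard errors are the log2 fold change divided by the square root of F. A comparison of 2 against 2 libraries allows no two-sided exact permutation p below 0.333, so single values were not tested that way. On simulated counts for 14615 genes of the day 6 comparison, 40.9%, 88.1% and 100% of changes of 0.5, 1 and 2 on the log2 scale were recovered, with 7 false calls. Only 66, 67 and 67 genes were changed there, far fewer than the 2756 called in the data. Whether the simulated duplicates spread as widely as the knockout pair is not given here. The 7 false calls are therefore no error rate for the real comparison.

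The samples were not treated as paired by replicate number. The correlation of replicate deviations between groups ran from −0.36 to 0.14. The value of −0.36 was between the knockout and wild type at day 6, where opposite replicate numbers tended to deviate alike. Between the knockout and H3.3K27A at day 6 it was −0.2. The comparison, the 40 gene lists and the tests were chosen with earlier results of these data known, and 2 lists were added after the values were seen. Genes were named by a rule: H3f3a and H3f3b; the 12 largest changes each way among called genes of at least 5 CPM without overlap between the lines; up to 3 called members of each list with the smallest adjusted p; and 6 genes each way by the interaction. Of 109 genes named, 93 came from the rule and 16 were chosen after their values were seen; some genes the rule gives are not reported here. Promoters and gene starts were taken from RefSeq on GRCm38.p6, the patch release of mm10, and matched by symbol or synonym for 14712 of 14760 genes. Alternatives were another normalization, other filters, DESeq2 1.42.0, a replicate block, fewer libraries and each library left out.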

Additional observations from a re-analysis of the deposited data

Results flagged for a closer look

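Of the 109 genes named, 65 differed between the days in their contrast of H3.3K27A with the H3.3A knockout, by edgeR's interaction term (Benjamini-Hochberg adjusted p below 0.05), with 36 more positive and 29 more negative at day 6. Over all genes tested this share was 5.39%, and the genes were named in part for their difference at day 6, so the share among them is a description. The values that follow are the log2 fold change at day 6 minus that at day 0.

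Among genes more positive at day 6, the interaction was at least 2 for Duox2 (3.85), Klhl13 (3.06), Upk3b (2.94), Il17re (2.87), Prom2 (2.81), Frem2 (2.57), Nectin4 (2.53), Wnt2b (2.5), Amot (2.31), Notum (2.16), Zfp750 (2.13), Sema3e (2.12), Evpl (2.08), Grhl3 (2.03) and Igfbp3 (2.02). It lay between 1 and 2 for Wnt6 (1.91), Rragd (1.85), Sox17 (1.81), Upk1a (1.80), Dab2 (1.69), Grhl1 (1.62), Mest (1.56), Cubn (1.56), Dlk1 (1.54), Grhl2 (1.39), Peg3 (1.36), Perp (1.33), Pdgfra (1.31), Col18a1 (1.23) and Sema3c (1.20). Smaller values were found for Smo (0.91), Lama5 (0.82), Peg10 (0.68), Cdon (0.59), Spry1 (0.54) and Cbx6 (0.39). Epithelial and Wnt genes of the first group were mostly not called at day 0, whereas Cubn, Pdgfra, Sox17 and Dab2 were lower in H3.3K27A on both days.

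Among genes more negative at day 6, the interaction was −2 or below for Prss35 (−3.96), Nppb (−3.72), Ctgf (−3.57), Drp2 (−3.10), Fst (−3.04), Lifr (−2.96), Ankrd1 (−2.90), Esam (−2.75), Trpc5os (−2.61), Arhgap6 (−2.59), Id4 (−2.54), Nid1 (−2.52), Etv4 (−2.34), Insig1 (−2.31), Lamc1 (−2.08) and P4ha1 (−2.02). It lay between −2 and −1 for Klf4 (−1.87), Sparc (−1.77), Lamb1 (−1.77), Lama1 (−1.75), Slc26a2 (−1.71), Acsf2 (−1.65), P4ha2 (−1.63), Dppa2 (−1.31), Vegfa (−1.26) and Tdh (−1.11). The remaining values were those of Lrp2 (−0.97), Flt1 (−0.70) and Phf1 (−0.68). Lama1 was called as lower in H3.3K27A on both days, by more at day 6.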

How the results depend on the processing

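At day 6 the 2756 calls (1333 higher, 1423 lower) became 208 (134 and 74) on the 4 libraries alone and 866 (320 and 546) with a log2 fold change of at least 1 required, and ran from 719 to 5794 (higher 401 to 2792, lower 318 to 3002) with 1 library left out. The counts stayed within 1.5 times under RLE size factors (2687), no filter (3062), a stricter filter (2734), no wild type (2089) and DESeq2 (2512). With a replicate block the count was 2098, and with the knockout's numbers crossed it was 3114. At day 0 the 187 calls became 336 (119 and 217) without a filter, 85 (23 and 62) with the replicate block, 1019 (518 and 501) on the 4 day 0 libraries, 75 (17 and 58) without wild type and 341 (138 and 203) in DESeq2. They ran from 19 to 25 (higher 2 to 3, lower 16 to 23) with 1 library left out. The 796 interaction calls became 451 (285 and 166) with the replicate block and 430 (265 and 165) on the 8 libraries of both lines, which is the fit without wild type. They ran from 170 to 3897 (higher 125 to 1922, lower 45 to 1975) with 1 left out, and 533 were lower without a filter. On the 4 libraries alone the led counts were 4 for endoderm, 5 for basement membrane, 6 for epithelium, 6 for Wnt, 2 for hypoxia, 2 for imprinted genes, 2 for HOX genes and 0 for neuron genes. With 1 library left out they ran from 8 to 21, 9 to 10, 9 to 20, 7 to 20, 4 to 17, 7 to 18, 5 to 24 and 0 to 21 in that order. The neuron count was 13 without a filter, 2 with the replicate block and 13 with the crossed numbers. With peaks of either ChIP duplicate, 7.52% of genes with neither mark at day 6, 7.03% with neither at day 0 and 12.1% with H3K27me3 alone at day 0 were higher. Klhl13, not called at day 6, was at −0.09, with −0.24 without knockout replicate 1 and 0.11 without knockout replicate 2. Of the 127 genes the rule named, 123 were called at day 6, and 43 of these were also called in the same direction on the 4 libraries alone. The cause of these shifts was not tested. Several of the fits held fewer libraries, and a pair with 1 library left out gives nothing to the spread. Counts with 1 library left out are therefore no like-for-like check on the main fit.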

Other observations

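The remaining 14 lists had between 1 and 9 called members at day 6. Retinoic acid pathway genes had 4 higher and 5 lower members of 22 tested, which is 40.9% against 18.7% of all genes, and 0 on the 4 libraries alone. Neural progenitor genes had 5 higher and 3 lower of 30 (26.7%), and their direction turned with the library left out: 6 were higher and 15 lower (median −0.37) without knockout replicate 1, and 9 higher and 2 lower (median 0.22) without knockout replicate 2. Neural crest genes had 3 higher and 1 lower of 16, formative and primed epiblast genes 3 higher and 1 lower of 12, and germline genes 3 higher and 2 lower of 23. Genes of fibrillar collagen and mesenchyme had 2 higher and 1 lower of 24, those of the integrated stress response 1 higher and 3 lower of 23, and DNA methylation enzymes 1 higher and 1 lower of 6. Notch pathway genes, clustered protocadherins, replication-dependent histone genes and genes of the 2-cell-like state each had 1 higher and 0 lower member, of 18, 22, 18 and 16 tested. The direction of other lists turned too. Without knockout replicate 1 the median was −0.22 for fibrillar collagen and mesenchyme, −0.32 for the Notch pathway and −0.77 for protocadherins, and without knockout replicate 2 it was 0.57, 0.43 and 0.44 in that order. Mitochondrial respiration genes had 0 higher and 3 lower of 23, and glutamate and GABA receptors 0 higher and 1 lower of 10.

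Of the 4 tested genes of the Y chromosome, 3 were lower in both edited lines than in wild type (Uty, Ddx3y and Eif2s3y), and Kdm5d was not called, with 0.551 and 0.686 CPM in H3.3K27A, 0.524 and 0.576 CPM in the knockout, and 0.501 and 0.436 CPM in wild type. Uty, a Y-linked demethylase relative, had 0.629 and 0.637 CPM in H3.3K27A, 1.89 and 2.08 CPM in the knockout, and 48.1 and 46.0 CPM in wild type at day 6. Ddx3y, an RNA helicase gene, had 2.05 and 3.48 CPM in H3.3K27A, 4.66 and 4.26 CPM in the knockout, and 43.6 and 42.6 CPM in wild type. Between the edited lines Uty was lower in H3.3K27A (log2 fold change −1.64, edgeR adjusted p = 0.00199) and so was Ddx3y (−0.71, edgeR adjusted p = 0.0465). The Y genes other than Uty were named after their values were seen, and the part of this difference in the comparisons with wild type was not tested.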
